A study of Mus musculus with 31 samples.

Results

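Igsf1 encodes a membrane glycoprotein of the immunoglobulin superfamily, and its transcript was followed as a single gene, 1 of 24062 gene names, through 21 RNA-seq libraries of mouse neural stem and progenitor cells. It was chosen by its measured change: of the 12914 genes tested at postnatal day 10 (P10), it was the 1 gene that passed an adjusted p of 0.05 between midazolam-exposed and control mice. Its P10 difference is therefore given as a description. Where other genes are set beside it at P10, their smaller changes follow largely from this choice. The P10 adjusted p-values are printed once, as the values that made the choice, and are not read as a test of Igsf1.

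Every animal group carried the Nestin-EGFP transgene on C57BL/6, in which a green fluorescent protein driven by Nestin sequences marks neural stem cells and also their recent progeny. MDZ P10 mice received midazolam (MDZ) into the peritoneum at 10 mg/kg on postnatal days 7, 8 and 9, and Control P10 mice received distilled water on the same days. RUN MDZ 8w mice had the same midazolam and were later housed with a running wheel until 8 weeks, MDZ 8w mice had midazolam and no wheel, and Control 8w mice had water. At P10 each mouse gave its own library of 50000 sorted dentate gyrus cells, whereas cells of 3 to 5 mice were pooled for a library at 8 weeks. Egr1 culture and Control culture were neural stem cells of wild-type ICR mice, taken from the cortex of embryos at day 11 and kept for over 20 passages. Both cultures carried a lentivirus for the M2rtTA transactivator, and Egr1 culture carried a further lentivirus for Flag-tagged Egr1, an immediate-early transcription factor. Each group had 3 libraries, and the other 10 of the 31 samples were not analysed here. Whether the cultured replicates were independent cultures is not stated in the labels, so p-values there measure a spread that may be technical.

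IGSF1 is best known from the anterior pituitary. In humans, loss of the X-linked gene causes central hypothyroidism, often with enlarged testes, and the protein has been linked to signalling by thyrotropin-releasing hormone and by activin and TGF-beta. It was once named the inhibin binding protein. Midazolam is a benzodiazepine sedative that strengthens inhibitory signalling through GABA-A receptors. Neural stem cells of the dentate gyrus produce the granule neurons of the hippocampus.

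Igsf1 lies on the minus strand of chromosome X at chrX:49782536-49797907 (RefSeq, GRCm38.p6, the assembly called mm10 by the submitters). RefSeq gives 3 start sites, each listed with 250 bases before and 50 after it. The most upstream promoter, chrX:49797696-49797995, and the most downstream one, chrX:49788194-49788493, are shown as the outermost of these 3 listed sites, 1 without and 1 with GC boxes. The most upstream listed site, 49797745, lies inside the gene span, which ends at 49797907, so part of its window before the site is within that span. Capitals mark GC boxes (GGGCGG on either strand).

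Igsf1 upstream promoter: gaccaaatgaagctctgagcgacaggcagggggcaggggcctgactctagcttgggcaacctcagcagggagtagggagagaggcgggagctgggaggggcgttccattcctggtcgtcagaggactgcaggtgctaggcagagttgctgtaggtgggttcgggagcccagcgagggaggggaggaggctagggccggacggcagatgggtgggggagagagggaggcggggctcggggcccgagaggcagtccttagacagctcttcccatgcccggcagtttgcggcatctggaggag

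Igsf1 downstream promoter: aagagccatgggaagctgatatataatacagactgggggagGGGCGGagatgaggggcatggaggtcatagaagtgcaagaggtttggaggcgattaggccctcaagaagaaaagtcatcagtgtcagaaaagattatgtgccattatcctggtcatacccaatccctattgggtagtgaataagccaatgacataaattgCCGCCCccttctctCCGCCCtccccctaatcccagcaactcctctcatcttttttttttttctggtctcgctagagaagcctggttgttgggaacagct

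The upstream promoter had 66% G or C bases and 13 CpG dinucleotides, against medians of 52.7% and 7 over all 32851 RefSeq promoters of this length. The downstream promoter had 48.3% and 5 CpG, and its 3 GC boxes lay 209, 49 and 35 bases before the start site. The middle one, chrX:49795315-49795614, had 44.7%, 2 CpG and, like the upstream one, no GC box. The GC box was present in 35.7% of all promoters. Because Egr1 was added in culture, the binding motif of Egr factors, GCGNGGGCG on either strand, was also searched. It shares letters with the GC box, occurred in 5.55% of all promoters, and none of the 3 Igsf1 windows held these letters.

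Some facts on the libraries precede the results. The P10 files hold FPKM, a level per length of transcript, and summed to between 241508 and 252344 FPKM. The 8-week and culture files hold TPM, also a level per length, scaled to one common total. Relative depth, read from the steps of low values, was 0.727 to 1 in MDZ P10 and 0.571 to 0.81 in Control P10. It was 0.927 to 1 in Egr1 culture and 0.9 to 0.971 in Control culture, and it could not be read at 8 weeks. In Control 8w, 97.43% of detected genes were common to replicates 2 and 3, against 78.4% and 77.8% common to each of them and replicate 1, and this near-identical pair was counted as 1 sample. The Control 8w files list between 11163 and 11397 genes above 0, fewer than the 15382 to 16709 genes of the exposed 8-week libraries. A 0 in them is therefore given only as listed at 0. The sorted cells held transcripts of the stem cell genes Sox2 and Nes in every library. Sox2 was at 98.8 to 106 FPKM in MDZ P10, against 87.4 to 106 FPKM in Control P10, and Nes at 9.19 to 10.1 FPKM in MDZ P10, against 8.71 to 11.1 FPKM in Control P10.

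At P10, 1 day after the last injection, Igsf1 was at about the middle of the expressed genes in exposed mice and higher in controls. It measured 5.04, 5.10 and 4.68 FPKM in the 3 MDZ P10 libraries, against 9.63, 9.83 and 8.55 FPKM in the 3 Control P10 libraries. The groups did not overlap: the highest MDZ P10 library was below the lowest Control P10 library by more than the whole range within either group. The mean of MDZ P10 was 4.94 ± 0.231 FPKM, and that of Control P10 was 9.33 ± 0.687 FPKM (SD, n = 3 each), so the MDZ P10 mean was 0.529 of the Control P10 mean. On the log2(FPKM + 1) scale, on which changes are given throughout and which understates changes of low genes, the difference was -0.80 ± 0.07 (SE). Among genes above 0, Igsf1 stood at percentile 48.9 to 50.4 in MDZ P10 and 61.2 to 64.9 in Control P10. In sorted bulk samples, fewer cells that express a gene and less of its RNA per cell cannot be told apart.

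**Figure D1:**
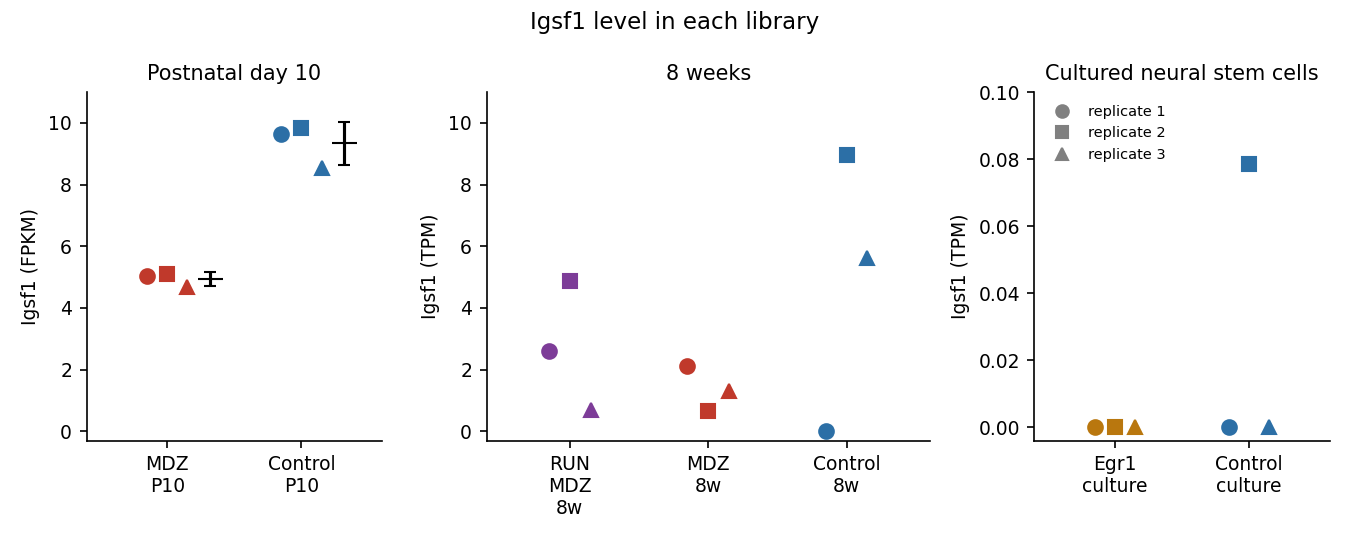
Igsf1 level in each library (points, with the shape giving the replicate number), in FPKM at P10 and in TPM at 8 weeks and in culture. Black bars beside the P10 points are the mean and SD of 3 libraries. The MDZ P10 libraries lie between 4.68 and 5.10 FPKM, below all Control P10 libraries, while the 8-week groups overlap and the culture axis ends at 0.1 TPM.

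The 1 call at P10 was 0.00774% of the genes tested. Groups that do not overlap were more common: 6.61% of tested genes had every MDZ P10 library below every Control P10 library, and 12.2% had every one above. The adjusted p by which the genes were ranked for the choice (limma) was 0.0331 for Igsf1, just inside the threshold. Just outside stood Siah3 at 0.051, then Gm12504 and Atp5j2 at 0.0624 each. These 3 were higher in MDZ P10. Siah3, of the SIAH family of ubiquitin ligase genes, averaged 6.98 FPKM in MDZ P10, against 4.30 FPKM in Control P10, and Atp5j2, for a subunit of the mitochondrial ATP synthase, 84.3 and 48.2 FPKM. By size alone Igsf1 was not the extreme: 5 tested genes had a lower log2 change (Xist, Mir7052, Mir378, Col3a1 and Mir6999). In either direction, 17 had a larger one. The falls of Xist and Mir378 each came from 1 control library, at 158.9 and 8.08 FPKM, with Mir378 listed at 0 elsewhere.

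The spread of Igsf1 between mice was ordinary for its level. This spread entered the p-value that chose the gene, so it too is given as a description. The SD of its log2 values was 0.057 in MDZ P10, against a median of 0.078 for the 1513 genes within 0.25 log2 units of its level in that group. In Control P10 it was 0.098, against a median of 0.081 for 1809 genes.

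**Figure D2:**
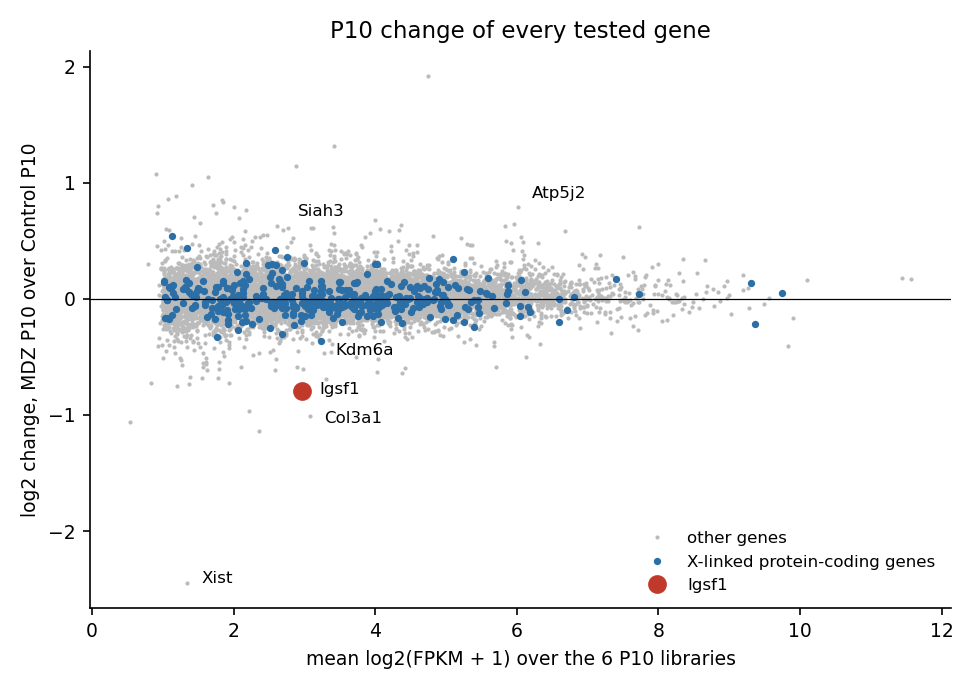
Change of each of the 12914 tested genes between MDZ P10 and Control P10 (log2, vertical axis) against its mean level over the 6 libraries (log2(FPKM + 1), horizontal axis). Igsf1 (red) lies at -0.80, below all other X-linked protein-coding genes (blue), the next of which is Kdm6a at -0.36. The gene was chosen on this comparison.

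Of 397 tested protein-coding genes of the X chromosome, Igsf1 had the lowest log2 change. This rank follows largely from the choice of the gene, since only 5 of all 12914 tested genes had a lower change. Kdm6a, a histone demethylase that escapes X inactivation, came next at -0.36. The median of the 397 genes was -0.0078, close to the median of 0.015 over all genes tested.

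The mice were not all of one sex by their transcripts. Control P10 replicate 1 had 158.9 FPKM of Xist, the RNA that coats the inactive X chromosome, and 0.032 FPKM of the Y-linked Ddx3y. The other 5 P10 libraries had at most 0.185 FPKM of Xist and at least 15.6 FPKM of Ddx3y. Igsf1 in the female-type control (9.63 FPKM) lay between the other controls. With a covariate for these transcripts, the log2 difference was -0.78, and no gene passed the threshold in that fit. Only 1 library was female-type, so the part of sex in the P10 difference was not tested.

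The neighbours of Igsf1 were mostly silent at P10. Of the 5 nearest protein-coding genes on each side that the files name, the olfactory receptor genes Olfr1320, Olfr1321, Olfr1322, Olfr1323 and Olfr1324 were listed at 0 in all 6 P10 libraries. Arhgap36, Stk26 and Fsip2l reached at most 0.13 FPKM. Frmd7, for a FERM domain protein mutated in inherited human nystagmus, measured 0.87 to 0.99 FPKM in MDZ P10, against 0.52 to 1.02 FPKM in Control P10. Enox2, 494.3 kb away and the 1 neighbour above the minimum mean of 1 FPKM at P10, measured 2.10, 2.04 and 2.09 FPKM in MDZ P10, against 1.92, 1.86 and 2.04 FPKM in Control P10. Its log2 difference was 0.07, so a lower level at P10 was not seen in the expressed gene nearest to Igsf1.

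Markers of other cells were read beside the P10 difference, since a sort can hold them. Because Igsf1 was the 1 gene called, the count of called markers is fixed at 0 and says nothing. Of 15 tested markers of pericytes, smooth muscle and fibroblasts, 13 were lower in MDZ P10, with a median log2 change of -0.26. The collagen gene Col3a1 measured 3.77, 3.77 and 8.14 FPKM in MDZ P10, against 8.33, 12.1 and 12.9 FPKM in Control P10. The summed level of all 16 markers was 372 to 383 FPKM in MDZ P10, against 353 to 440 FPKM in Control P10. These sums overlapped, but Pdgfra and Cspg4, also on the oligodendrocyte lineage list, weigh heavily in them. Both were higher in MDZ P10, unlike the 13. Pdgfra measured 134, 161 and 127 FPKM in MDZ P10, against 88.5, 150 and 96.1 FPKM in Control P10. Rgs5, 1 of the 13, measured 76.9, 63.3 and 68.4 FPKM, against 87.8, 82.4 and 105 FPKM in Control P10. A sum without Pdgfra and Cspg4 was not taken. Of 8 tested ependymal and choroid plexus markers, 7 were lower, with a median of -0.12, and the sums of all 10 were 42.7 to 123.4 FPKM in MDZ P10, against 45.9 to 243 FPKM in Control P10. Ttr, the thyroid hormone carrier made in bulk by the choroid plexus, measured 0.683, 73.5 and 41.3 FPKM in MDZ P10 replicates 1 to 3 and 32.1, 2.06 and 180.6 FPKM in Control P10 replicates 1 to 3. The library with the most Ttr had the most Igsf1 within MDZ P10 (5.10 FPKM) and the least within Control P10 (8.55 FPKM). The other 6 marker lists (radial glia, granule neuron lineage, astrocyte, oligodendrocyte lineage, endothelial and microglia) had medians between -0.11 and 0.058. The part of these cells in the P10 difference was not tested.

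The thyroid axis was read next, because human IGSF1 deficiency acts through it. Of 23 listed genes, 15 were high enough to test at P10, with 10 above and 5 below 0 and a median log2 change of 0.11, against 0.015 over all genes tested. Dio2, the deiodinase that makes active thyroid hormone, measured 44.5, 47.8 and 44.5 FPKM in MDZ P10, against 35.8, 35.0 and 35.5 FPKM in Control P10. Its groups did not overlap, as for 12.2% of genes in that direction, and its log2 difference was 0.35. Thra, the main thyroid hormone receptor of neural cells, averaged 90.0 ± 2.97 FPKM in the MDZ P10 group and 90.8 ± 6.12 FPKM in controls (SD, n = 3 each). The thyroid hormone transporter gene Slco1c1 averaged 150 FPKM in MDZ P10, against 133 FPKM in Control P10. The pituitary part of the axis was at or near 0 in these cells: Cga was listed at 0 in all 6 libraries, and the group means of Trhr, Tshb, Tshr and Trh were between 0.047 and 0.33 FPKM.

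The activin, inhibin and TGF-beta genes stayed close to 0 on the scale of changes. Of 29 listed genes 20 were tested, 11 above and 9 below 0, with a median of 0.011. Inha, the inhibin alpha subunit, had the largest positive change at 0.26, measuring 6.65, 6.90 and 7.21 FPKM in MDZ P10, against 5.77, 5.71 and 5.43 FPKM in Control P10, with no overlap. Smad4, the shared signal mediator, averaged 20.6 FPKM in MDZ P10, against 21.9 FPKM in Control P10. The receptor gene Acvr1b averaged 12.3 and 12.4 FPKM in the same order.

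Relatives of Igsf1 in the immunoglobulin superfamily did not share its change in size. Of 19 listed genes 14 were tested, 6 above and 8 below 0, with a median of -0.012, and the lowest was Igsf9 at -0.20. The adhesion genes Cadm4 and Igsf8 were the most abundant, at 224 and 81.1 FPKM in MDZ P10, against 206 and 79.6 FPKM in Control P10. Igsf11, a synaptic adhesion gene, averaged -0.11 on the log2 scale.

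**Figure D3:**
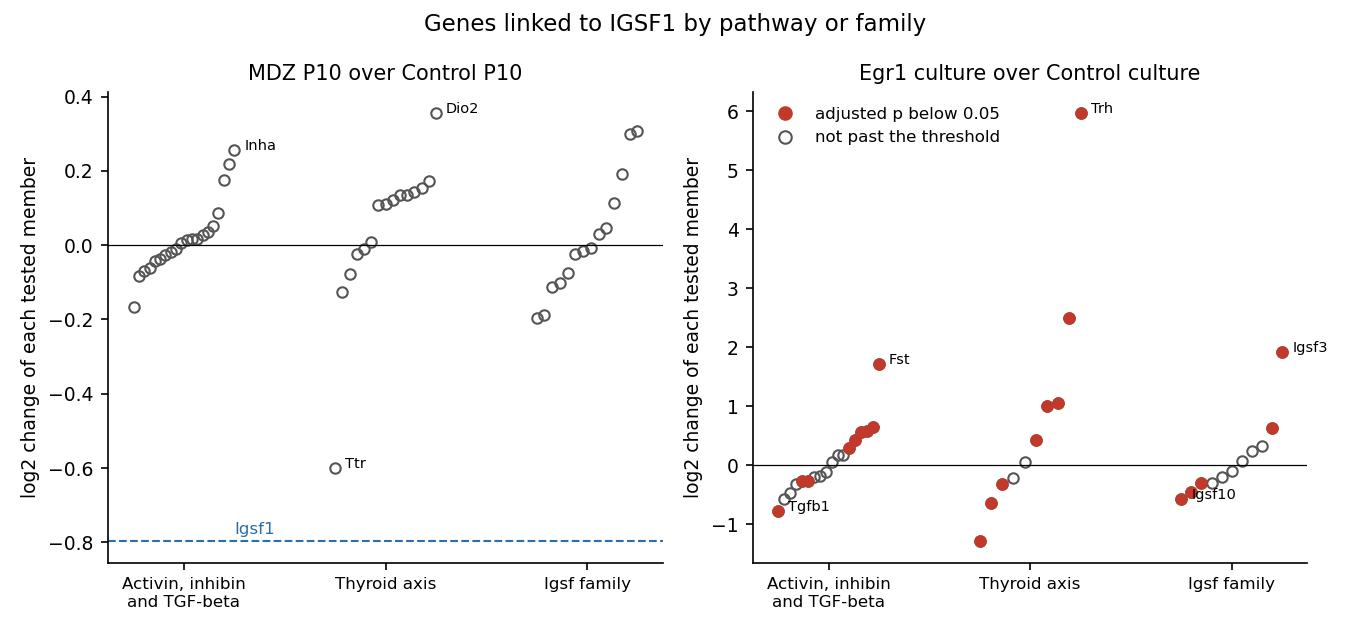
Log2 change of each tested member of 3 lists linked to IGSF1, at P10 (left, 20, 15 and 14 genes) and in culture (right, 18, 10 and 11 genes), filled where the adjusted p was below 0.05. The dashed line is Igsf1 at P10 (-0.80), below every member of the lists, the lowest of which is Ttr at -0.60. In culture Trh stands highest, at 5.97.

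Egr1 also differed without overlap at P10, in the opposite direction to Igsf1 and like 12.2% of genes. Egr1 measured 289.1, 269 and 231 FPKM in MDZ P10, against 178, 149.7 and 187 FPKM in Control P10. Nab2, a corepressor of Egr factors, measured 6.70, 7.10 and 5.95 FPKM in MDZ P10, against 4.06, 3.93 and 3.74 FPKM in Control P10. The log2 differences were 0.62 for each.

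At 8 weeks Igsf1 was low and variable, and no difference between groups was larger than the spread. It measured 2.60, 4.87 and 0.704 TPM in RUN MDZ 8w, 2.13, 0.659 and 1.30 TPM in MDZ 8w, and 0, 8.95 and 5.63 TPM in Control 8w replicates 1 to 3. The groups overlapped in every pair, and the control group held both the lowest and the highest library. Where listed above 0, Igsf1 stood between percentile 3.85 and 17.8 of the expressed genes. The mean in exposed mice was 2.73 ± 2.08 TPM with a wheel and 1.36 ± 0.735 TPM without (SD, n = 3 each).

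The MDZ 8w minus Control 8w difference was -0.33 ± 0.98 on the log2(TPM + 1) scale (SE; limma adjusted p = 0.879, n = 3 and 2), in a comparison that called 5.13% of genes (4.68% higher and 0.452% lower). The RUN MDZ 8w minus MDZ 8w difference was 0.53 ± 0.88 (adjusted p = 0.956 from limma), with 0.157% of genes called (0.0524% higher and 0.105% lower). RUN MDZ 8w minus Control 8w gave 0.20 ± 0.98 (adjusted p = 0.914 from limma), with 11.3% of genes called (9.41% higher and 1.9% lower). These comparisons share samples. Exact two-sided permutation tests of the gene alone gave p = 0.8, 0.4 and 0.9 in the same order, where 0.1 is the smallest these designs allow. With errors this wide, a difference as large as that at P10 was not detectable at 8 weeks.

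One library decided the values against controls. Without Control 8w replicate 1, which lists Igsf1 at 0, the averaged pair was the 1 control sample left. The log2 difference was then -1.86 for MDZ 8w and -1.33 for RUN MDZ 8w. This second difference had the opposite sign with that library. Without RUN MDZ 8w replicate 2, the difference between RUN MDZ 8w and Control 8w was -0.22 and that between RUN MDZ 8w and MDZ 8w was 0.12. With Control 8w replicates 2 and 3 kept apart, MDZ 8w minus Control 8w was -0.82 (adjusted p = 0.585 from limma).

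The highest Igsf1 values at 8 weeks were in the 3 libraries with the most choroid plexus transcript. Ttr measured 3552 TPM in RUN MDZ 8w replicate 2 and 4481 and 4744 TPM in Control 8w replicates 2 and 3. These control replicates are the near-identical pair counted as 1 sample, so the 3 libraries are not 3 independent samples. In the other 6 libraries it was between 0.119 and 18.5 TPM. The same 3 libraries held the highest Clic6, at 9.12, 20.5 and 22.4 TPM, and the highest Kl, at 19.9, 17.2 and 16.5 TPM, both choroid plexus markers. Folr1 did not follow this split, at 29.4 TPM in RUN MDZ 8w replicate 1 against 25.4 TPM in replicate 2. The ciliary markers Foxj1, Tmem212, Ccdc153 and Dynlrb2 were listed at 0 in all Control 8w libraries and were above 0 in all exposed ones, and Rarres2 and Rsph1 were listed at 0 in Control 8w replicates 2 and 3. The summed level of the 10 ependymal and choroid markers was 449 to 4377 TPM in RUN MDZ 8w, 71.0 to 124 TPM in MDZ 8w and 113 to 4838 TPM in Control 8w. Tshb, a pituitary gene of the thyroid list, measured 25.8 and 38.0 TPM in Control 8w replicates 2 and 3. It was listed at 0 in the other 8-week libraries. Cga, also of the pituitary, was listed at 0 in all 8-week libraries. Trhr measured 7.98 TPM in Control 8w replicate 1, which lists Igsf1 at 0. The part of choroid plexus, ciliated or other cells in the Igsf1 values was not tested.

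**Figure D4:**
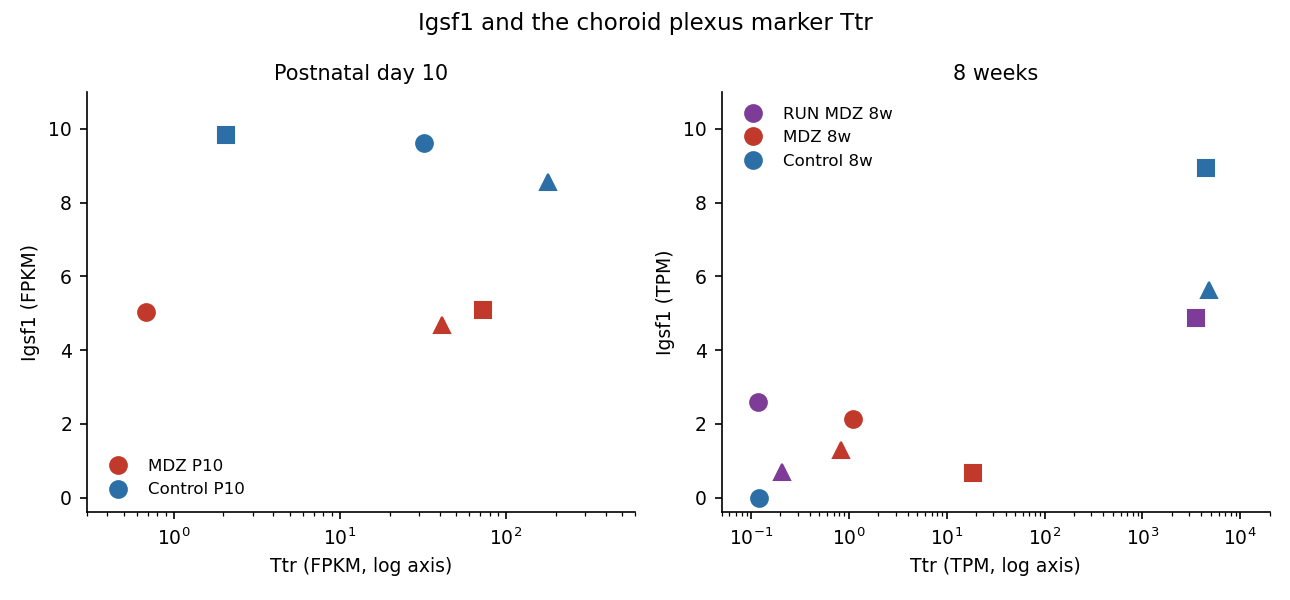
Igsf1 against the choroid plexus marker Ttr (log axis) in each library, at P10 in FPKM (left) and at 8 weeks in TPM (right), with shapes for replicates 1 (circle), 2 (square) and 3 (triangle). At 8 weeks the 3 libraries with the most Ttr, at 3552 to 4744 TPM, have the highest Igsf1, from 4.87 to 8.95 TPM. Of those 3 libraries, Control 8w replicates 2 and 3 are a near-identical pair counted as 1 sample. At P10 the groups separate on Igsf1 and overlap on Ttr.

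Sex transcripts also differed among the 8-week pools. Ddx3y was listed at 0 in RUN MDZ 8w replicates 1 and 3 and measured 29.1 TPM in replicate 2. It was 51.3 to 72.3 TPM in MDZ 8w and 48.6 to 58.2 TPM in Control 8w. Xist was above 0 in every 8-week pool. It measured 663, 280 and 620 TPM in RUN MDZ 8w, 24.5, 107 and 271 TPM in MDZ 8w, and 95.6, 527 and 449 TPM in Control 8w replicates 1 to 3. The part of sex in the Igsf1 values at 8 weeks was not tested. The 2 pools with no Ddx3y had 2.60 and 0.704 TPM of Igsf1.

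Between MDZ 8w and Control 8w, both genes of the related lists that passed were listed at 0 in controls. Inha, of 24 tested activin, inhibin and TGF-beta genes, was the 1 that passed as higher (adjusted p = 0.0236 from limma), at 16.5, 10.8 and 20.4 TPM in MDZ 8w and listed at 0 in all Control 8w libraries. Vsig2, for a little studied immunoglobulin superfamily protein, was the 1 that passed of 15 tested relatives, at 3.83, 7.78 and 6.70 TPM and again listed at 0 in controls. None of 17 thyroid axis genes passed. With 4.68% of all genes called higher here, 1 of 24 and 1 of 15 are near the background. Under quantile normalization neither gene passed (adjusted p = 0.242 for Inha and 0.582 for Vsig2, limma). The medians were 0.86, 0.66 and -0.12 for the activin list, the relatives and the thyroid list, against 0.36 over all genes tested, all as deposited. Under quantile normalization these medians were 0.018, 0.19 and -0.34, against -0.06 over all genes.

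Between RUN MDZ 8w and Control 8w, 4 of 24 activin-list genes passed as higher (Inha, Tgfbr3, Smad3 and Smad6). Of 15 relatives, 2 passed as higher (Vsig2 and Cadm1) and 1 as lower (Igsf8). The control files, which name fewer genes above 0, list Inha, Smad6 and Vsig2 at 0 throughout. They give Tgfbr3 as 0.561, 0.153 and 0 TPM for replicates 1 to 3. Whether these calls reflect a change of level or the listing of low values was not tested. Smad3 and Cadm1 were above 0 in every control library. Of all genes, 9.41% were called higher and 1.9% lower. Under quantile normalization the activin list had 0 calls, Tgfbr3 turned to -0.73, and Cadm1 was the 1 relative that passed. Markers of other cells moved in the same comparison: 8 of 10 astrocyte, 8 of 10 endothelial and 5 of 10 oligodendrocyte lineage markers passed as higher, and 5 of 10 granule neuron lineage markers as lower. Over all 8 marker lists, 29 of 87 entries passed as higher and 5 as lower, against 10 and 4 between MDZ 8w and Control 8w. Their part in the list changes was not tested. No gene was called between RUN MDZ 8w and Control 8w with library quality weights, or with only these 2 groups fitted. Igsf8 measured 372, 402 and 424 TPM in RUN MDZ 8w and 684, 648 and 733 TPM in Control 8w. None of the 3 lists had a call between RUN MDZ 8w and MDZ 8w. Frmd7, a neighbour of Igsf1, passed between RUN MDZ 8w and Control 8w (adjusted p = 0.0473 from limma), at 24.0, 6.26 and 13.3 TPM in RUN MDZ 8w and listed at 0 in controls.

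In culture Igsf1 was at the edge of detection. It was listed at 0 in all 3 Egr1 culture libraries and at 0, 0.0785 and 0 TPM in Control culture replicates 1 to 3. Its mean was below the minimum for testing. With no filter on low values the adjusted p was 0.584 (limma), and the exact two-sided permutation p was 1. These cells could therefore not show whether added Egr1 lowers Igsf1. The added gene itself measured 1769, 1390 and 1291 TPM in Egr1 culture, against 361, 285 and 344 TPM in Control culture, a log2 difference of 2.16 ± 0.13 (SE; limma adjusted p = 4.02e-06). The value for Egr1 may hold both the introduced and the endogenous transcript.

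The thyroid and activin genes could be read where Igsf1 could not. The whole comparison called 44.2% of genes, 15.2% higher and 29.0% lower, and with median-of-ratios scaling 2776 were higher and 2721 lower, against 1888 and 3598 as deposited. That scaling moved the median of all genes to 0.0053, against -0.098 as deposited. Of 10 tested thyroid axis genes, 5 passed as higher and 3 as lower, and of those with values given here each passed in the same direction under both scalings. Ncor1, a corepressor that was lower, lost its call under median-of-ratios scaling. Trh, the thyrotropin-releasing hormone precursor, measured 72.2, 70.0 and 66.7 TPM in Egr1 culture, against 0.301, 0 and 0.108 TPM in Control culture, a log2 difference of 5.97 ± 0.12 (limma adjusted p = 1.87e-08). Hr, a corepressor that thyroid hormone induces in brain, measured 9.11, 9.37 and 7.61 TPM in Egr1 culture and 0.854, 0.762 and 0.558 TPM in Control culture (log2 2.49). Klf9, a thyroid hormone response gene, was higher by 1.01. Thra was lower, at 29.3, 28.3 and 29.5 TPM in Egr1 culture and 43.2, 46.4 and 48.8 TPM in Control culture (log2 -0.65).

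Of 18 tested activin, inhibin and TGF-beta genes in culture, 6 passed as higher and 3 as lower, and the calls of Acvr1b and Tgfbr2, both lower, were lost with median-of-ratios scaling. That scaling gave 8 higher and 1 lower, and quantile normalization 8 higher and 4 lower. Fst, the activin antagonist follistatin, measured 9.84, 8.84 and 8.65 TPM in Egr1 culture, against 1.71, 2.17 and 2.34 TPM in Control culture (log2 1.72). Of 11 tested relatives, 2 passed as higher and 3 as lower, with the calls of Igsf9b and Vsig10, both lower, lost under median-of-ratios scaling. That scaling gave 3 higher and 1 lower, and quantile normalization 3 higher and 4 lower. Igsf3 measured 25.3, 22.7 and 19.1 TPM in Egr1 culture and 5.46, 4.84 and 5.19 TPM in Control culture (log2 1.92). A list's share of calls is to be read against the 44.2% of all genes called.

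Over all groups, the order of Igsf1 ran down with age and culture. With every file scaled to the same total as TPM, it was 19.3 to 20.5 in MDZ P10 and 34.6 to 40.6 in Control P10. Every P10 library was above every 8-week library, the highest of which was at 8.95, and every library with a value at 8 weeks was above the culture libraries. The 8-week groups did not differ from each other beyond their spread, nor did the culture groups. The 3 kinds of file were made separately, and the levels between them were not tested.

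The genes nearest to Igsf1 in profile were, like it, lower in the later and cultured files. Their P10 changes are given as a description, since Igsf1 was chosen on its P10 difference. Likeness was the root mean square distance of log2(value + 1) on that common scale, each gene centred on its mean over the groups, over 20 samples and 14851 genes, where the median gene was at 1.94. Aifm3 was nearest at 0.687, followed by AI464131 at 0.750, Agt at 0.800, Casr at 0.801 and, in the sixth place, Ncan at 0.815. Agt encodes angiotensinogen, a product of astrocytes in brain, Casr the calcium-sensing receptor and Ncan the matrix proteoglycan neurocan. The P10 log2 changes of these 5, from Aifm3 to Ncan, were -0.18, -0.13, -0.33, -0.10 and 0.12, all smaller in size than the -0.80 of Igsf1. Agt came nearest to it: it measured 49.4, 58.5 and 53.5 FPKM in MDZ P10, against 70.3, 78.2 and 56.5 FPKM in Control P10, so its groups overlapped.

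**Figure D5:**
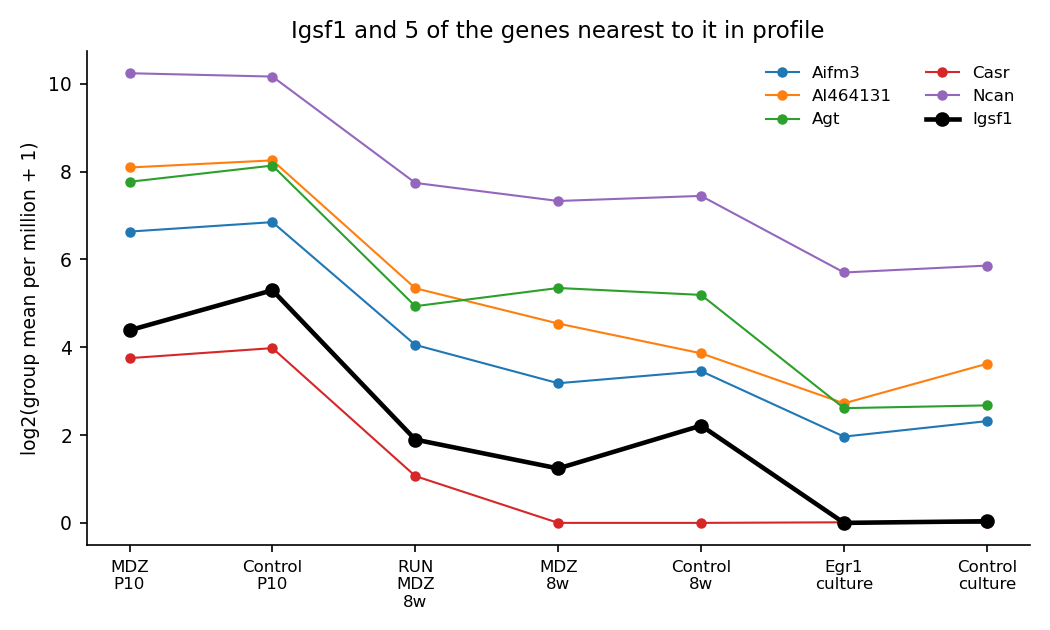
Group means on a common scale with the same total as TPM (log2(mean + 1)) of Igsf1 (black) and of 5 of the 6 genes nearest to it in profile, over the 7 groups. All 6 lines drop between the P10 and the 8-week groups. Igsf1, which was chosen on its P10 difference, has the largest step between MDZ P10 and Control P10.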

How the data were processed

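Per the labels' protocols, EGFP-positive dentate gyrus cells were sorted, mRNA was isolated directly and directional libraries were made. The submitters' processing notes name the build mm10 and the tools Bowtie2, TopHat and DESeq2, but neither versions nor roles. Annotation, strand setting and filters: not given in the sources used here. Values of overlapping genes are therefore uncertain. The authors deposited FPKM values per gene at P10 and TPM values at 8 weeks and in culture. The units were inferred from column sums, as the labels do not name them. Read counts were not used here, so no counting interval is given, and relative depth was the commonest ratio between libraries among values of 0.005 to 0.1.

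From the deposited values, log2(value + 1) was fitted with limma 3.58.1 (R 4.3.3; lmFit, eBayes with trend) over genes whose mean in the fitted libraries reached 1, with Benjamini-Hochberg adjustment at 0.05. All 8-week groups shared one estimate of spread. Control 8w replicates 2 and 3 were averaged as 1 sample. The fit was tested on simulated data. Alternatives changed the pseudocount, filter, scaling, library weights, replicate block, sex covariate and samples. Named genes were Igsf1, the 6 nearest in profile, the next 3 by adjusted p at P10, 5 neighbours on each side, and at most 4 members of each list, the most abundant and those that passed; other genes were named after their values were seen. Some genes under this rule are not reported here. Igsf1 and the lists were chosen with earlier results of these data known. Promoter sequences are from RefSeq (GRCm38.p6).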

Additional observations from a re-analysis of the deposited data

How the results depend on the processing

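The P10 log2 difference of Igsf1 (-0.80) was negative under all 15 alternatives. It was -0.90 with a pseudocount of 0.1, -0.53 with a pseudocount of 5 and -0.91 with FPKM rescaled to a common total, and -0.85 to -0.76 with single libraries left out. The threshold that chose it was crossed in 6 of the 15 alternatives. It was crossed in 1 of the 6 that leave out a library. Calls at P10 ran from 0 to 101 against 1, and 101 was reached without Control P10 replicate 2.

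At 8 weeks no alternative gave Igsf1 an adjusted p below 0.05. MDZ 8w minus Control 8w reversed to 0.63 with a pseudocount of 0.1, was -1.57 under quantile normalization, and ran from -1.86 to -0.10 with single libraries left out. RUN MDZ 8w minus Control 8w reversed to -0.057 with a pseudocount of 5, to -1.37 under quantile normalization and to -0.29 with Control 8w replicates 2 and 3 kept apart, and ran from -1.33 to 0.68 with single libraries left out. RUN MDZ 8w minus MDZ 8w ran from 0.12 to 1.01. In culture the Igsf1 difference was -0.036, -0.28 with a pseudocount of 0.1, and -0.055 to 0 with single libraries left out. The cause of these shifts was not tested.

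Replicate numbers were shared between groups and were not used as pairs in the main fits. Same-numbered P10 libraries had correlations of deviations of -0.08, 0.12 and 0.11, and differently numbered ones ran from -0.22 to 0.16. With deviations centred within groups of 3, these values cannot show whether the samples were paired. With the replicate block, RUN MDZ 8w minus Control 8w was -0.29, and calls were 0 at P10, 1227, 14 and 2595 in the 3 comparisons at 8 weeks (MDZ 8w with Control 8w, RUN MDZ 8w with MDZ 8w, RUN MDZ 8w with Control 8w) and 4646 in culture. The fit without Control 8w replicate 1 left 1 control sample and is set aside here. Over the other alternatives those 8-week counts ran from 19 to 1787, 0 to 432 and 0 to 2904, against 783, 24 and 1727. In culture the counts ran from 4383 to 6077 against 5486. A permutation test was not run at P10, where the gene was chosen, and median-of-ratios scaling, quantile normalization and quality weights gave no culture value for Igsf1, which was under the filter.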
